A study of Mus musculus with 6 samples.

Results

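Distal intergenic peaks are the sites of open chromatin that lie between genes at a middle distance from any gene start. They were taken from 1 list of ATAC-seq peaks of untreated V6.5 mouse embryonic stem cells (mESCs), on chromosomes 1 to 19. A peak was kept when it touched no protein-coding gene of the RefSeq annotation of GRCm38 and when its nearest edge was over 10 kb and at most 100 kb from the nearest curated transcription start site (TSS). Of the 41014 peaks, 40228 lay on these chromosomes, 17883 of them outside protein-coding genes, and 10531 met the whole rule, which is 25.7% of the list. ATAC-seq marks accessible DNA by the cuts of the Tn5 transposase, and the list pooled 2 untreated replicates, so it holds no value per replicate and no test between samples was possible. The V6.5 cells were grown with LIF on irradiated mouse embryonic fibroblasts, the feeder cells. The paper also lists the compounds CHIR99021 and PD0325901 in its medium for mESCs. The group label of the untreated cultures names no added agent, although the treatment text that all labels share describes doxycycline given to degron cells. The 4 samples of ZBTB21-degron cells, at 0 and 6 h of auxin (IAA), were not analysed here. The authors' score is a whole number that ran from 540 to 951 among these peaks. It was read as a measure of how well a peak was reproduced between replicates. It is not a height in itself, but it may rise with height, which was not tested. Intervals are Wilson 95% intervals and cover counting error only, and SDs are over the 19 chromosomes, which are not replicates.

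Enhancers, insulators and silencers often lie far from the genes they act on. In mESCs, enhancers are bound by the pluripotency factors OCT4, SOX2, NANOG, ESRRB and KLF4, and insulator sites by CTCF, at which cohesin halts when it forms chromatin loops. An accessible site shows only that DNA is open, and neither the kind of element nor its target gene can be read from it.

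The sequences of 12 of these peaks are shown because they carry the motifs that the later comparisons count or lie at loci of well-known mESC enhancers. Each is 300 bp around the peak centre on the plus strand of GRCm38 (mm10), read from the RefSeq genome, with the named motif in capitals. The first, chr9:108201139-108201438, lies in the highest-scored peak with a CTCF core (CCA, 2 free bases, AG, 2 free bases, GGC), 10.6 kb upstream of Bsn, with a score of 927. The next is the highest-scored peak with the OCT4-SOX2 composite TTGTNATGC, at chr6:125442647-125442946, 51.6 kb downstream of the TSS of Cd9 with a score of 872. The octamer ATGCAAAT, which is bound by OCT4 and shares the letters ATGC with the composite, is shown at chr11:72576537-72576836 near Spns3, with a score of 913. The ESRRB motif CAAGGTCA occurs 2 times at chr3:115758610-115758909 near S1pr1, with a score of 884. The KLF motif GGGTGTGG is shown at chr5:64864881-64865180 near Gm21011, with a score of 939.
CTCF core near Bsn: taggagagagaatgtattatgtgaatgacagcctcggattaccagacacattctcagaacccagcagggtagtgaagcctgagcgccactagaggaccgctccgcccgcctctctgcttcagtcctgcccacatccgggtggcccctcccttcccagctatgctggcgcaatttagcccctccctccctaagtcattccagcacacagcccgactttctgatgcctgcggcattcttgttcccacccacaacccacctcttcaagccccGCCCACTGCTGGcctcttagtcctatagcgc
OCT4-SOX2 near Cd9: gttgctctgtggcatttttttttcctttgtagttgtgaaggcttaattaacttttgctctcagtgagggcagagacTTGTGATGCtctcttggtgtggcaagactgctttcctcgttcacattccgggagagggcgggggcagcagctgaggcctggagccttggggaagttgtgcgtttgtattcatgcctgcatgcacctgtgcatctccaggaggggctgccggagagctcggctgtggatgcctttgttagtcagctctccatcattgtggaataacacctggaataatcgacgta
Octamer near Spns3: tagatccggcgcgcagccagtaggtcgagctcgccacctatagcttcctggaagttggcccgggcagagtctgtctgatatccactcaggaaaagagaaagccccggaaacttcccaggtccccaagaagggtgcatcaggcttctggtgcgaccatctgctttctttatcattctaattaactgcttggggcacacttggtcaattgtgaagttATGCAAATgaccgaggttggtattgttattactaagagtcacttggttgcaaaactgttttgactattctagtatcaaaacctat
ESRRB near S1pr1: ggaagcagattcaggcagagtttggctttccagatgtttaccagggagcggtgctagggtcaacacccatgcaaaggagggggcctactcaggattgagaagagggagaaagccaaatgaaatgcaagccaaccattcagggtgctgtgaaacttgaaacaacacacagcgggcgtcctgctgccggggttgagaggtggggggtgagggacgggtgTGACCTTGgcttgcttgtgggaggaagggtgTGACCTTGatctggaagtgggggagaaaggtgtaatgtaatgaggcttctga
KLF near Gm21011: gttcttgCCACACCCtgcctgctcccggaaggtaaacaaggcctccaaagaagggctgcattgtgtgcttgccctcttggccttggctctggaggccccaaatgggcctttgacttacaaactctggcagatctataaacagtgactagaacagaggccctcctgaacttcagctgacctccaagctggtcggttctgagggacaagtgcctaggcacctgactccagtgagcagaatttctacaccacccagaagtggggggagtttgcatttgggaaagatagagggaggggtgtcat

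The next pair shows a repressor and an AP-1 motif. REST, which silences neuronal genes outside neurons, has a motif of CAGCACC and GGACAG, 2 bases apart. Its highest-scored peak, at chr11:32889347-32889646 near Gm12111, had a score of 800. The peak at chr11:20477498-20477797, 65.2 kb upstream of the nearest Sertad2 TSS, had the highest score of all, 951, and holds the AP-1 motif TGAGTCA. A predicted or GENCODE TSS, which the rule did not use, lay within 1 kb of it.
REST near Gm12111: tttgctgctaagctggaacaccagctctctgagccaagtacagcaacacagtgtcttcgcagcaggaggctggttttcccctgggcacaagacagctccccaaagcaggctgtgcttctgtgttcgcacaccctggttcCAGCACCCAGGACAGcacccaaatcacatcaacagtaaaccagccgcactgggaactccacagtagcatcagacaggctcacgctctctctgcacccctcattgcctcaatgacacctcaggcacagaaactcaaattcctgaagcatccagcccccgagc
AP-1 near Sertad2: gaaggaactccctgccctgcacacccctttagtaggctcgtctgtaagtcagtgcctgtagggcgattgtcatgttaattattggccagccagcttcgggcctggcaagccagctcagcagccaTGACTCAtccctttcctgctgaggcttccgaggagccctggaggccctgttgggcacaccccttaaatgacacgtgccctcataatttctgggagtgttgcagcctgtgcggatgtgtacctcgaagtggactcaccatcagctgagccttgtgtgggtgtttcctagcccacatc

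The last 5 are each the highest-scored peak at its own locus, among 5 loci of the pluripotency network chosen for their known roles, and other genes of the network had higher scores. They lie at chr4:55500890-55501189 (31.1 kb from Klf4, score 785), chr6:122669489-122669788 (37.6 kb from Nanog, score 784), chr3:34668473-34668772 (18.5 kb from Sox2, score 781), chr1:13084930-13085229 (41.6 kb from Prdm14, score 812) and chr3:34761190-34761489. The last of these, with a score of 823, lies in the Sox2 control region, a known distal enhancer of Sox2 in mESCs, and its nearest curated TSS is that of the noncoding gene Gm38509, 10.5 kb away. It was chosen after the reference had been read. Capitals mark a CTCF core in the Nanog sequence and an AP-1 motif in that of the Sox2 control region, and the other 3 sequences held none of the 16 motifs searched.
Klf4 locus: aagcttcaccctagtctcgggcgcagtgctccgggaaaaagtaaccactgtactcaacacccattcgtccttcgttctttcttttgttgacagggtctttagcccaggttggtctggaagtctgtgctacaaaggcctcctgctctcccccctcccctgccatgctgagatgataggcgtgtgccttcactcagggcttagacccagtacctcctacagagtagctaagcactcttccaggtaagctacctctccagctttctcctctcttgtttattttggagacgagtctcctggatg
Nanog locus: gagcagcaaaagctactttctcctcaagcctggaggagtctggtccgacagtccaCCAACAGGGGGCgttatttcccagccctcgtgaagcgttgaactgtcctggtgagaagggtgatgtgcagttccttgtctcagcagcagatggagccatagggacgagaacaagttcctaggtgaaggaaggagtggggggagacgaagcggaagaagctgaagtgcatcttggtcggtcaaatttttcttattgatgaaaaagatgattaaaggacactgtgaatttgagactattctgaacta
Sox2 locus: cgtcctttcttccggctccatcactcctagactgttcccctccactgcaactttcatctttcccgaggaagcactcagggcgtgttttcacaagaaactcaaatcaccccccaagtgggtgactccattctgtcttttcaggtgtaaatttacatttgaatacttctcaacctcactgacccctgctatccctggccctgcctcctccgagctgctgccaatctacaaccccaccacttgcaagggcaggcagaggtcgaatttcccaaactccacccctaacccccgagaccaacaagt
Prdm14 locus: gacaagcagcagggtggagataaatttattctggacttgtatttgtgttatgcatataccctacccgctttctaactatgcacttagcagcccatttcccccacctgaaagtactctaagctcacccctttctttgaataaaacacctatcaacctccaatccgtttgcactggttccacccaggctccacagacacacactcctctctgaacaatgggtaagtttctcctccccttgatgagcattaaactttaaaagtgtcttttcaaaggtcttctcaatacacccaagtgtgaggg
Sox2 control region: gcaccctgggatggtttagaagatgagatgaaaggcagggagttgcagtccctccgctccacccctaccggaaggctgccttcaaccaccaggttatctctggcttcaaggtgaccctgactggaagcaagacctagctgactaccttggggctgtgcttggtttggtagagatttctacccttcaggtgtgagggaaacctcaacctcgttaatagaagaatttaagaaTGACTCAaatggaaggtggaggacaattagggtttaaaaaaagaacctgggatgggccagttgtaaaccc

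The label of the cells was checked at promoters. A listed peak lay within 1 kb of a TSS of 3 of 7 mESC marker genes, Pou5f1, Nanog and Zfp42, and of 2 of 10 fibroblast markers, Thy1 and Pdgfrb. Among all 20021 protein-coding genes with a curated TSS, 28.8% had such a peak, so a missing promoter peak does not show that a gene was closed. Esrrb, Sox2, Klf4 and Tdgf1 had none. The part of feeder cells in the list was not tested.

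The bases that meet the location rule came to 599 Mb, 25.02% of the 2396 Mb of chromosomes 1 to 19, and the distal intergenic peaks to 26.2% of the peaks there. Their density was 17.6 ± 3.61 peaks per Mb (SD over 19 chromosomes), from 13.3 on chromosome 3 to 28.8 on chromosome 11. The density fell with distance from a TSS, from 23.8 peaks per Mb at 10 to 20 kb to 18.8 at 20 to 50 kb and 12.1 at 50 to 100 kb. Beyond 100 kb, in gene deserts, it was 4.42 peaks per Mb. Inside protein-coding genes the density was 23.7 peaks per Mb at 10 to 20 kb, about the same as between genes, and 15.5 at 50 to 100 kb, above the intergenic value. With repeat (soft-masked) bases left out, it was 38.9 per Mb between genes and 33.0 inside them at 10 to 20 kb. At 20 to 50 kb these densities were 30.1 and 27.1, and at 50 to 100 kb 19.1 and 21.3. Distal intergenic peaks showed no side preference, since 59.3% (58.4 to 60.2%) lay upstream of their nearest TSS, as did 59.2% of the bases. Compared with the bases of the territory, they lay more often near genes with a promoter peak. For 26.9% of the peaks the nearest gene had a listed peak within 1 kb of a TSS, against 19.8% of the bases, which gives 23.9 peaks per Mb near such genes and 16.01 near the others. The share was higher for peaks inside genes, at 30.7%, and proximal peaks (1 to 10 kb), at 32.97%, and 22.7% in deserts. Peaks near such genes also lay closer to the TSS, at medians of 27156 and 30109 bp, and the densities were not split by distance.

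**Figure D1:**
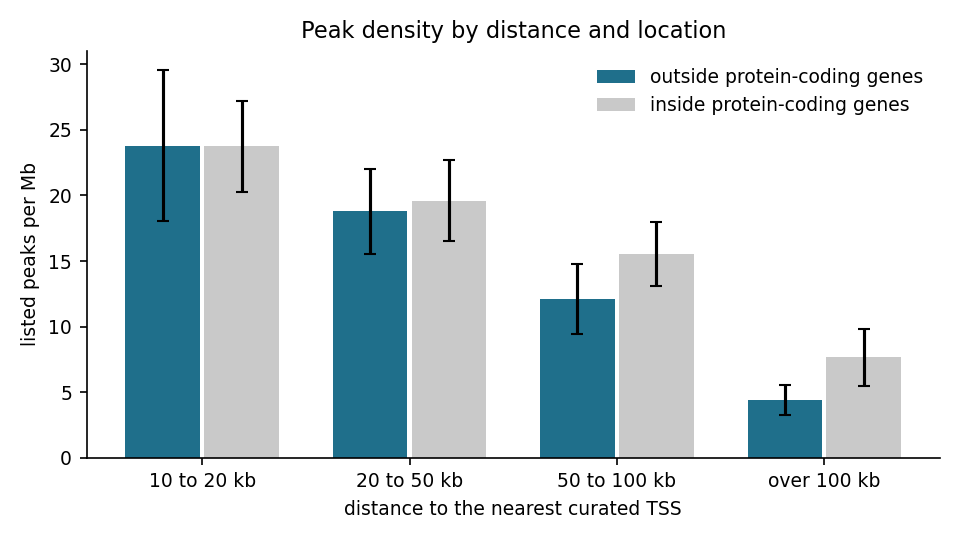
Listed ATAC-seq peaks per Mb (vertical axis) by distance to the nearest curated TSS (horizontal axis), outside (blue) and inside (grey) protein-coding genes. Bars are densities over chromosomes 1 to 19 and error bars the SD over the 19 chromosomes. The first 3 blue bars are the distal intergenic peaks and fall from 23.8 to 12.1 peaks per Mb.

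At the limits of the rule, 393 intergenic peaks lay 9 to 10 kb from a TSS with a median score of 683, and 363 lay 10 to 11 kb away with a median of 702. At the far limit, 31 peaks lay 99 to 100 kb away with a median score of 686, and 27 lay 100 to 101 kb away with a median of 696.

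In score, width and base composition the distal intergenic peaks resembled other distal peaks more than promoters. The median score was 693, with 90% of the peaks between 558 and 830, against 687 for peaks inside genes over 10 kb from a TSS, 681.5 in gene deserts and 740 at promoters. Proximal peaks, at 1 to 10 kb, had the same median score of 693, a median width of 524 bp and a median GC content of 52.7%. The median over these peaks was above that of the peaks inside genes on 16 of 19 chromosomes, above the deserts on 15, and below the promoters on 19. The median width was 529 bp, against 517 bp inside genes, 500.5 bp in deserts and 747 bp at promoters, and it was above the deserts on 19 of 19 chromosomes. The GC content of the 300 bp at the centre had a median of 51.7%, well above the 42.3% of 300 bp windows of the same territory that touched no peak, and below the 60% of promoters. The ratio of observed to expected CpG had a median of 0.224, against 0.213 inside genes, 0.233 in proximal peaks, 0.176 in deserts and 0.686 at promoters. A GC content of at least 60% with a CpG ratio of at least 0.6, as in CpG islands, was found in 71 peaks (0.674%). The share was 0.585% inside genes, 1.86% of proximal peaks, 0.327% in deserts and 43.2% at promoters. Scores rose with width among these peaks (Spearman's rho = 0.29 over 10531 peaks, which share their libraries) and hardly with distance to the TSS (rho = -0.034).

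**Figure D2:**
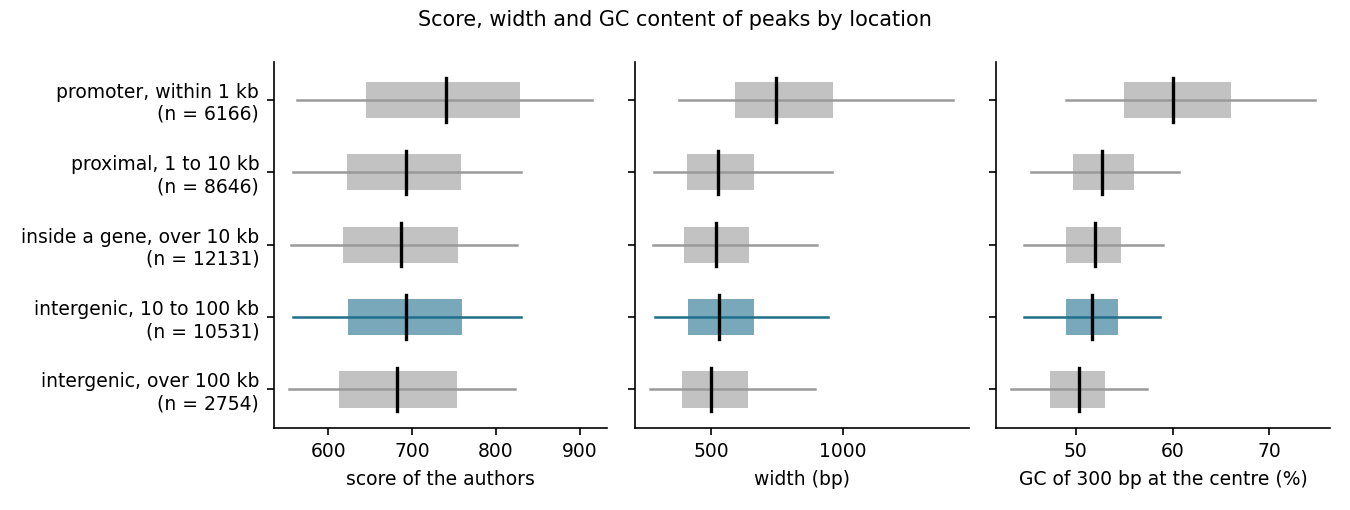
Score of the authors, width in bp and GC content in percent (horizontal axes) of peaks in 5 locations (vertical axis, with the number of peaks). Black ticks are medians, boxes the middle 50% and lines the 5th to 95th percentile. The distal intergenic peaks (blue) have medians of 693, 529 bp and 51.7%, and the promoters lie to the right in all 3 panels.

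Transcript models that the rule did not use start near some of these peaks. Within 1 kb of a predicted RefSeq or GENCODE TSS lay 989 peaks, with a median width of 556 bp and a median CpG ratio of 0.274, against 527 bp and 0.219 for the other 9542. A GENCODE TSS lay within 1 kb of 5.44% of these peaks, against 4.47% in deserts, 9.71% inside genes and 14.4% of proximal peaks. For a predicted TSS the shares were 5.35%, 3.2%, 4.24% and 6.88% in the same order. The span of a lncRNA gene held 1999 peaks (18.98%, 18.2 to 19.7%). The share was 16.8% at promoters, 13.0% of proximal peaks, 14.6% in deserts and 5.20% inside protein-coding genes. Over a tRNA gene lay 49 peaks (0.465%), close to the 0.497% of proximal and 0.422% of promoter peaks. In deserts it was 0.0726% and inside genes 0.0165%. Repeats, which the genome file gives as soft-masked bases, made up a mean of 20.4% of the central 300 bp of the peaks and of 37.7% of the windows without a peak, and 13.6% of the peaks were masked over at least 50% of these bases. So were 9.70% of peaks inside genes, 10.96% of proximal peaks, 18.8% of desert peaks and 1.56% of promoter peaks.

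Short motifs were counted in the central 300 bp on both strands and set against 1961584 windows of 300 bp that tile the territory and touch no peak. A match is a string of letters and not a measured binding site. At least 1 of the 16 motifs was present in 4986 peaks (47.3%). The CTCF core, the insulator motif, was found in 1122 peaks (10.7%, 10.1 to 11.3%) and in 1.63% of the windows, 6.52 times as often. Peaks inside genes over 10 kb from a TSS held it in 10.6%, and proximal peaks, at 1 to 10 kb, in 12.0%. Desert peaks held it in 5.70% and promoter peaks in 3.94%. Peaks with a CTCF core were narrower, with a median of 497 bp, and their median score was 694, close to that of all the peaks. The strongest ratio was that of REST. Only 27 peaks held its motif, 0.256% (0.176 to 0.373%), but 0.00474% of the windows did, a ratio of 54.1. Peaks inside genes held it in 0.379%, proximal peaks in 0.370%, desert peaks in 0.254% and promoter peaks in 0.211%. Of 131 REST matches in the whole territory, 31 lay inside a distal intergenic peak, which is 23.7% (17.2 to 31.6%) of the matches in 0.981% of the bases. For CTCF the same count was 1563 of 35644 matches, or 4.39%, and for the octamer 529 of 54691, or 0.967%, no more than the share of bases.

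Among the motifs of pluripotency factors the differences from the windows were smaller. The KLF motif was found in 866 peaks (8.22%, 7.71 to 8.76%) against 1.89% of the windows, and the ESRRB motif in 434 (4.12%, 3.76 to 4.52%) against 1.72%. Peaks inside genes held KLF and ESRRB in 8.705% and 3.77%, proximal peaks in 8.40% and 3.79%, and desert peaks in 6.32% and 5.85%. The OCT4-SOX2 composite was found in 170 peaks (1.61%, 1.39 to 1.87%) against 0.777%. The octamer was found in 333 peaks (3.16%, 2.84 to 3.51%) against 2.61%. Of these 4 motifs and the CTCF core, 7780 peaks (73.9%) held none and 166 held 2 or more, with ESRRB and KLF together in 47 peaks and the composite and the octamer in 13. AP-1, the site of FOS and JUN, was found in 985 peaks (9.35%) against 4.79%, and the TEAD motif ACATTCCA, read by effectors of the Hippo pathway, in 287 (2.73%) against 1.44%. Peaks inside genes held AP-1 in 9.32%, proximal peaks in 8.93% and desert peaks in 9.19%. The STAT motif TTCCNGGAA, the site of the LIF effector STAT3, was found in 169 peaks (1.605%) against 0.805%. The GC box GGGCGGGG, read by the SP factors, was found in 638 peaks (6.06%) against 0.696%, and the ETS motif CCGGAAGT in 111 (1.05%) against 0.172%. Both are promoter motifs too, and promoters held them in 23.0% and 7.04% of peaks.

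These ratios depend on base composition, since the peaks are richer in GC than the windows. Both were therefore also compared within a GC content of 50 to 55%, a choice made after seeing the data. The ratio then was 5.37 for the CTCF core and 14.8 for REST (10 peaks), and 2.62 for the composite, where it had been 2.08. It fell from 4.35 to 2.25 for KLF, from 8.71 to 2.83 for the GC box and from 6.14 to 2.82 for ETS. The octamer, which is rich in A and T, went from 1.21 to 3.23. The E-box CACGTG was found in 4.87% of the peaks, and its ratio went from 1.61 to 1.06. The GATA motif AGATAAG went from 0.724 to 1.10 and ZNF143 (ACTACAATT) from 0.535 to 1.40, the latter on 3 peaks, so for both the direction turned. The YY1 motif AAGATGGC was less frequent in the peaks than in the windows, at 1.83% against 2.84%, a ratio of 0.645 that became 0.398 at a GC content of 50 to 55%. When peaks and windows with at least 50% of soft-masked bases were both left out, the YY1 ratio was 0.965. The NRF1 motif GCGCATGCG was held by 20 peaks (0.190%).

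As a control for composition, motifs were also counted with their letters in reverse order, which keeps the bases but can break up or make a CpG. The reversed GC box, GGGGCGGG, was found in 5.15% of the peaks against 0.620% of the windows, a ratio of 8.30 beside the 8.71 of the motif. It shares GGGCGGG with the motif, so it cannot tell the motif from its composition. The reversed KLF motif, GGTGTGGG, which shares GGTGTGG with the motif, had a ratio of 2.42 against 4.35. The reversed CTCF core, held by 0.237% of the peaks, had one of 3.48 against 6.52. For ESRRB the reversed letters had a ratio of 1.12, for AP-1 1.17, for the composite 0.835 and for the octamer 0.440.

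**Figure D3:**
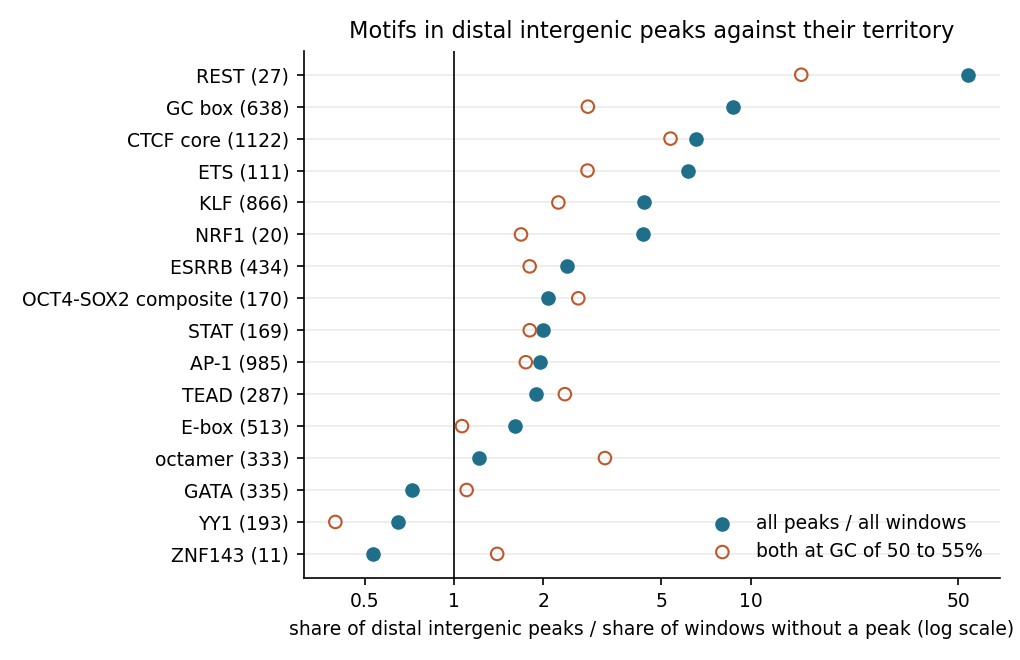
Share of distal intergenic peaks with a motif divided by the share of 300 bp windows without a peak (horizontal log axis), for 16 motifs (vertical axis, with the number of peaks that hold the motif). Filled points use all peaks and windows, and open points only those with a GC content of 50 to 55%. REST and the CTCF core lie far to the right of 1 in both, at 54.1 and 14.8 and at 6.52 and 5.37.

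The mix of motifs changed with distance from the TSS. The CTCF core was present in 12.7% (11.6 to 13.9%) of the peaks at 10 to 20 kb, in 10.4% (9.54 to 11.3%) at 20 to 50 kb and in 8.46% (7.45 to 9.60%) at 50 to 100 kb, and the share was higher at 10 to 20 kb than at 50 to 100 kb on 18 of 19 chromosomes. In desert peaks it was 5.70%, lower than in the distal intergenic peaks on all 19 chromosomes. The windows without a peak fell alongside, from 2.11% to 1.27%, so that the ratio of peaks to windows was 6.03 at 10 to 20 kb and 6.66 at 50 to 100 kb. The octamer went the other way. It was present in 2.29% (1.84 to 2.86%) of the peaks at 10 to 20 kb and in 4.35% (3.63 to 5.21%) at 50 to 100 kb, with the higher share at the far distance on 14 of 19 chromosomes, and in 5.12% of desert peaks. Its ratio to the windows rose from 0.94 to 1.57. Among peaks with less than 50% of soft-masked bases the octamer share also rose, from 2.52% to 4.68%. The OCT4-SOX2 composite was at 1.30% (0.965 to 1.74%) near and 1.71% (1.27 to 2.28%) far, intervals that overlap, and at 2.76% in desert peaks. For ESRRB the shares of 3.92% and 4.70% overlapped within their intervals too, and without soft-masked peaks they were 3.54% and 3.57%. KLF stood at 9.02% (8.09 to 10.05%) near and 7.45% (6.501 to 8.53%) far, also with overlapping intervals.

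**Figure D4:**
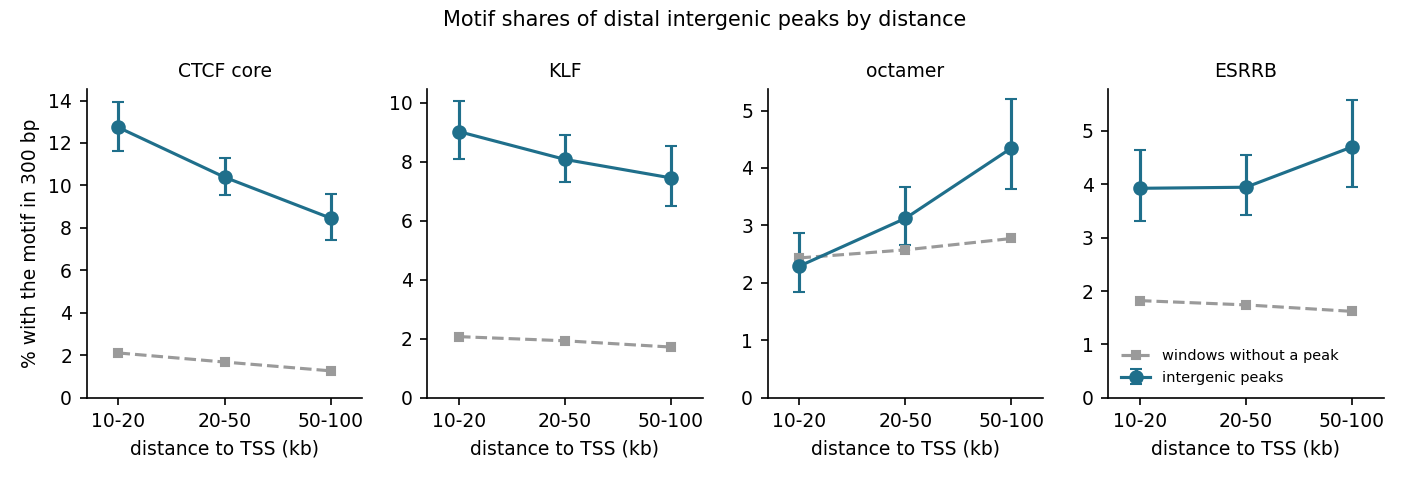
Percent of distal intergenic peaks with the CTCF core, KLF, octamer or ESRRB motif in the central 300 bp (vertical axes, which differ in range) by distance to the nearest TSS in kb (horizontal axes). Blue points are peaks with Wilson 95% intervals, and grey squares windows without a peak at the same distance. The CTCF share falls from 12.7% to 8.46% and the octamer share rises from 2.29% to 4.35%.

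Motif shares differed little between high and low scores for some motifs and more for others. Among the 2613 peaks with the highest scores (761 to 951) the octamer was present in 4.10% of the peaks and among the 2640 with the lowest (540 to 623) in 2.92%, while KLF stood at 9.19% and 7.46% and ESRRB at 4.13% and 3.90%. The YY1 motif went the other way, with 1.19% among the highest and 2.16% among the lowest scores, as did NRF1 with 0.0383% and 0.189%, on few peaks. The CTCF core stood at 9.22% among the highest and 9.70% among the lowest scores. Between them, at scores of 624 to 693 and 694 to 760, it was at 11.15% and 12.55%, and NRF1 at 0.263% and 0.268%. Median width was 607 bp among the highest scores and 458 bp among the lowest.

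Peaks were joined over the stitching distance commonly used for superenhancers, which here gave gaps of up to 12497 bp. Another listed peak of any kind lay within this distance of 59.2% of the distal intergenic peaks, against 58.7% of promoter peaks, 54.6% of peaks inside genes, 71.5% of proximal peaks and 32.7% of desert peaks. When only distal intergenic peaks were joined, they formed 7206 runs, of which 5114 were single peaks and 716 held 3 or more. These 716 runs held 2665 peaks (25.3%), whose median score was 703, against 688 for single peaks. With gaps of at most 5 kb the share in such runs was 8.58%. The largest run had 11 peaks in 48.5 kb between 1810013L24Rik and Usp7, the gene of a deubiquitinase, with scores from 555 to 828. Runs of 10 peaks lay near Commd7 and Nol4l, in 40.1 kb, and near Gpx5 and Trim27, in 50.7 kb. A run of 8 peaks in 37.8 kb lay near Cd9 and Plekhg6 and holds the OCT4-SOX2 peak printed above. Runs of 3 or more held the CTCF core in 9.64% of their peaks and single peaks in 10.9%, and the KLF motif in 9.08% and 7.94%.

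By the nearest curated TSS, 5515 of 15569 genes had at least 1 distal intergenic peak, and 3007 of these had exactly 1. The nearest gene was taken only as a label of the locus. Rybp, a subunit of a variant Polycomb complex, had the most, with 12 peaks at 46.5 to 98.2 kb and scores from 559 to 861. There were 11 peaks each near Sgk1, the gene of a kinase downstream of PI3K, Sp3, the gene of a GC box factor, and Zfp706. There were 10 each near Cdk1, the mitotic kinase, near Jarid2, a cofactor of Polycomb complex 2, and near Zfp281, a zinc finger factor of the pluripotency network. Ccdc167 and the noncoding genes Gm35695 and Gm5086 had 9 each, as did 5 other genes that follow them in the alphabet. At Zfp281 the 10 peaks lay from 11.3 to 66.97 kb, 8 of them upstream, in 0.0782 Mb of territory, which is 128 peaks per Mb. Of these 10 genes, Rybp, Sgk1, Sp3 and Ccdc167 also had a promoter peak.

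Genes of the pluripotency network and its signalling had more distal intergenic peaks than protein-coding genes in general. Of 38 such genes with territory around them 30 had a peak (78.9%), against 33.3% of all 12597 protein-coding genes with territory. Territory per gene was larger in the list, at 2.12 Mb for 38 genes against 413 Mb for 12597, so these shares are not like for like. The 96 peaks of the list came to 45.3 per Mb of its territory, against 18.9 for all protein-coding genes and 23.8 for the densest distance bin. The median score of the 96 peaks was 720, against 693. The gene list was chosen with earlier results of these data known, and no test stands behind these values. A promoter peak was present at 50% of the list's genes, against 28.8% of all, and its part in the difference was not tested. Regulators of the germ layers and the trophoblast, which are mostly silent in mESCs, had a peak at 10 of 20 genes, with 25 peaks at 21.5 per Mb and a median score of 734. Markers of fibroblasts had one at 7 of 16 genes, with 10 peaks at 10.4 per Mb and a median score of 681. Among the 96 pluripotency peaks the KLF motif was present in 11, the CTCF core in 6, the octamer or the composite in 4 and ESRRB in 3. Among the 7801 peaks nearest to any protein-coding gene the counts were 636, 919, 320 and 324 in the same order. Over all distal intergenic peaks KLF stood at 8.22%, the CTCF core at 10.7% and ESRRB at 4.12%. No excess is read from counts this small.

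At Jarid2 all 10 peaks lay upstream, at 18.3 to 94.6 kb. Their scores were 782, 677, 699, 757, 809, 795, 828, 644, 619 and 593 from the nearest to the farthest. The 3 lowest were the 3 farthest peaks, and the 3 highest lay together at 42.1 to 52.1 kb. At Klf5, a naive pluripotency factor, 7 of 8 peaks lay downstream of the TSS at 22.0 to 67.5 kb, with scores of 783, 828, 556, 743, 725, 731 and 699 in order of distance. The octamer was present in the peaks at 41.0 and 54.3 kb and the KLF motif in those at 22.0 and 56.8 kb. At Zfp42, also called Rex1, a marker of naive mESCs, 7 peaks lay within 31.6 kb, and the nearest one upstream, at 13.5 kb with a KLF motif, had the highest score, 850. At Prdm14, which keeps germ layer genes and DNA methyltransferases low, 5 peaks lay downstream of the TSS at 22.8 to 57.1 kb, with scores of 731, 613, 812, 806 and 618. None of these 5 held any of the 16 motifs in its centre. At Sall4, a zinc finger factor of the core network, 5 peaks lay upstream, the highest at 23.7 kb with a score of 837. Mycn, the MYC family member of early embryos, had 4 peaks, the highest at 14.0 kb with a score of 849.

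Genes of signalling feedback in the pluripotency list differed in their number of peaks. Dusp6, a phosphatase of ERK, had 8 with scores from 564 to 796. Spry2, an inhibitor of receptor tyrosine kinase signalling, had 7 with scores from 652 to 865, the highest of them 23.6 kb upstream. Spry4, of the same family, had 5 with scores from 701 to 802, all downstream of the TSS. Etv4 and Etv5, ETS factors induced by FGF signalling, had 1 and 2. Tfap2c, a factor of trophoblast and germ cells, had 7 with scores from 565 to 808. The core factors had fewer peaks by this rule, at 1 to 3 each. Nanog had 3 peaks, with scores of 784 and 551 at 37.6 and 36.9 kb upstream and 645 at 12.4 kb downstream. Sox2 had 2 by this rule, with scores of 687 and 781 at 13.9 and 18.5 kb downstream, and Klf4 had 2, with scores of 785 and 623. Pou5f1, which encodes OCT4, had 1, with a score of 782 at 15.2 kb upstream. The Sox2 control region is not counted here, since its nearest TSS is that of Gm38509. Among the lineage regulators, Hand1, a trophoblast and heart factor, had 5 peaks with scores from 684 to 862 and no promoter peak. Sox1, a factor of the neural plate, had 5 with scores from 559 to 804. Gsc, a gastrulation factor, and Olig2, a factor of motor neuron and oligodendrocyte precursors, had 4 each, with highest scores of 752 and 773. The scores at these 4 lineage regulators lay within the range of the pluripotency list, 540 to 874. The 5th and 95th percentiles of all distal intergenic peaks, 558 and 830, also lay within it, so this shows no likeness of the lists. The only fibroblast gene with 3 or more was Thy1, with scores of 649, 558 and 675, of which the first holds the REST motif and overlaps a ZBTB21 peak.

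**Figure D5:**
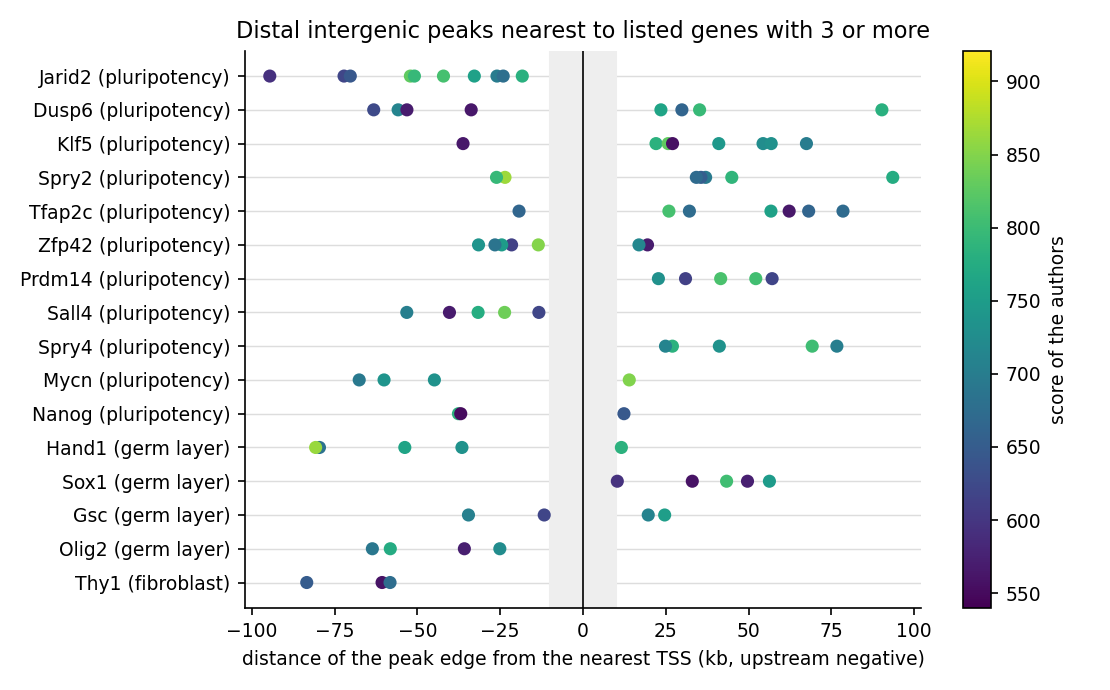
Position of each distal intergenic peak around the nearest TSS in kb (horizontal axis, upstream negative) for the 16 listed genes with 3 or more peaks (vertical axis, with the list in parentheses), coloured by score. The grey band marks the 10 kb on either side that the rule leaves out. Jarid2 has 10 peaks, all upstream, and Prdm14 has 5, all downstream.

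Some of these peaks fall in elements that RefSeq records as tested for function, a comparison chosen after the reference had been read. In 9 elements tested in embryonic stem cells lay 20 distal intergenic peaks, with a median score of 788.5 and a range from 548 to 845. The Sox2 control region held 3, with scores of 810, 796 and 823, and the nearer Sox2 enhancer SRR18 held the peak with a score of 781. Elements targeted by CRISPR interference near Mir290, which makes the main microRNAs of mESCs, held peaks with scores of 840 and 845. The element of Tet1, a DNA demethylase, held 1 with a score of 781, and that of Sall1 held 4 with scores of 666, 819, 618 and 548. The element named for Ranbp17 held 6 with scores from 557 to 813. Of 204 VISTA enhancers in the same territory, which were active in transgenic mouse embryos, 48 held a distal intergenic peak (23.5%, 18.2 to 29.8%), at 108 peaks per Mb of their length and with a median score of 725. Of 109 other RefSeq regulatory elements in this territory 4 held a distal intergenic peak (3.67%, 1.44 to 9.06%). These 4 include an enhancer record inside the Sox2 control region, which was placed here because its record states no function. It holds the peak with a score of 810 already counted above, so this class is not free of elements active in embryonic stem cells. Of the elements tested in embryonic stem cells only 6 met the location rule as a whole, and 3 of these 6 held a peak (18.8 to 81.2%).

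ZBTB21, the zinc finger factor that the study depleted, was rare at these sites, as at other peaks away from promoters. The ChIP-seq coordinates of ZBTB21 in mESCs were those listed with the study. Of the distal intergenic peaks 90 overlapped a ZBTB21 peak by at least 1 bp (0.855%, 0.696 to 1.05%), against 0.651% (0.523 to 0.811%) of peaks inside genes, 1.08% (0.879 to 1.32%) of proximal peaks, 8.50% of promoter peaks and 0.290% (0.147 to 0.572%) of desert peaks. By the peak centre, 82 lay in a ZBTB21 peak (0.779%), against 0.618% inside genes and 1.01% of proximal peaks. The 90 were wider than the others, with medians of 643.5 and 528 bp, had a higher CpG ratio, 0.402 against 0.223, and a median score of 719.5 against 692. A wider peak meets the 1 bp rule more easily, and scores rose with width, so these widths and scores are not independent of the rule. Their highest scores were 932 near Rnf19b, 925 near Prrc2b and 918 at 18.1 kb upstream of Fos, the immediate early gene. A predicted or GENCODE TSS lay within 1 kb of 18 of the 90, and of 989 of all 10531 distal intergenic peaks. Of these 989 peaks 1.82% overlapped a ZBTB21 peak, and of the 9542 others 0.755%. The study ranked loops by ZBTB21 and cohesin ChIP-seq signals at the ATAC-seq peaks inside them, so the peaks are not independent of the loop classes. In the ZBTB21-responsive loops lay 21.0% (20.3 to 21.8%) of the distal intergenic peaks, close to the 20.1% of peaks inside genes over 10 kb from a TSS and the 20.3% of proximal peaks at 1 to 10 kb, against 17.8% at promoters and 15.4% in deserts. In the less-responsive loops lay 2.04% (1.79 to 2.33%), against 2.14% inside genes, 1.16% of proximal peaks, 1.57% at promoters and 11.9% in deserts.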

How the data were processed

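The authors deposited 1 peak list of the untreated condition, with mm10 coordinates and a score per peak. How ATAC-seq peaks were called, including a shift for Tn5, is not given in the sources used here. The submitters' processing notes name cutadapt 2.6, Bowtie2 2.3.5.1 and MACS2 2.1.1. The lowest score, 540, is that of an IDR of 0.05 on the IDR software's scale, and the score was read so from its values alone, with no depth per sample. Start sites were those of curated RefSeq transcripts (NM_ and NR_) on GRCm38, the assembly that mm10 names. The location rule was tested on 3000 simulated regions, of which 0 differed from a direct search. Motifs were searched as exact letters. The members, gene lists and motifs were chosen with earlier results of these data known. Genes named were the 10 with most peaks, listed genes with at least 3, and those nearest to a printed sequence, and the others were chosen after their values were seen. Degron samples were not analysed here. ZBTB21 peaks (1827) and loops (500 of each class) were used by coordinates only. The alternatives were other distance rules, score limits, windows and merging. Python 3.11.15, numpy 2.4.6, pandas 2.3.3, scipy 1.17.1 and matplotlib were used.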

Additional observations from a re-analysis of the deposited data

How the results depend on the processing

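No paired analysis was possible because the list pools its replicates, and for the same reason no replicate could be left out. Depth was not known. When only scores above the list's median were kept, the peaks numbered 5107, with a density of 8.52 per Mb and a median width of 574 bp, and left 56, 16 and 4 peaks of the pluripotency, germ layer and fibroblast lists. With soft-masked bases left out the density was 28.1 per Mb, and the nearest NM_ TSS gave 38 germ layer peaks. The other rules of distance or merging gave 8348 to 10626 peaks, within 1.5 times the 10531. With 200 bp windows the shares were 7.84% for the CTCF core, 1.14% for OCT4-SOX2, 2.23% for the octamer, 2.86% for ESRRB and 6.21% for KLF, and with 500 bp windows 13.0%, 2.27%, 4.48%, 6.14% and 10.9%. The next 2 settings, and those without the genes with most peaks, were chosen after seeing the data. At a GC content of 50 to 55% the CTCF core was in 11.3% and the octamer in 2.84%, and among peaks with less than 50% soft-masked bases ESRRB was in 3.63% and KLF in 7.49%. Of 80 motif ratios under alternatives, 68 stayed within 1.5 times the main value, and the 2 that turned direction were GATA at 1.10 and ZNF143 at 1.40, both at a GC content of 50 to 55%. In loop anchors only lay 2.50% (responsive) and 0.408% (less-responsive). At most 5 kb apart, 8.58% of the peaks were in runs of 3 or more. Without Jarid2, Hand1 and Thy1, the genes with most peaks, the 3 lists had 86, 20 and 7. The cause of these differences was not tested beyond what each setting leaves out.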
